A study of Mus musculus with 6 samples.

Results

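The transcripts described here are those of 10 genes that hold the transcription factor NF-kB in check or that NF-kB switches on as its own feedback: Nfkbia, Nfkbib, Nfkbie, Nfkbiz, Nfkbid, Bcl3, Tnfaip3, Tnip1, Tnip2 and Tnip3. They were chosen by gene symbol from the 15458 rows of the deposited count table. All 10 were found, and all 10 passed the filter on low counts among 13120 genes tested. The libraries were made on day 18 from flow-sorted Kupffer cells, which are liver-resident macrophages, of wild-type C57BL/6 mice bearing tumours of the hepatoma line Hepa1-6. In the KC_Epo group the tumour cells overexpressed erythropoietin, the hormone of red cell formation, and in the KC_EV group they carried an empty vector. Each group had 3 libraries. All mice therefore bore tumours of a single cell line, with no tumour-free group, and the tumour cells, not the Kupffer cells, carried the construct. The age of the mice is not stated.

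In KC_Epo, 6 of the 10 genes were lower, as were 15.4% of all tested genes, and 0 were higher, as were 16.9% of all tested genes. Tnip3 fell 11.9-fold. Nfkbiz, Tnfaip3 and Nfkbia fell 1.70-fold, 1.43-fold and 1.38-fold, while the falls of Tnip1 and Nfkbie were smaller still. Nfkbib, Nfkbid, Tnip2 and Bcl3 did not pass the test. Transcripts of 4 of the 5 NF-kB subunits, the proteins that the IkB family binds, were lower in the same libraries.

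NF-kB proteins are dimers that wait in the cytoplasm, bound to inhibitors of the IkB family. Signals from Toll-like receptors or the TNF receptor activate the IKK kinases, which mark the inhibitor for destruction, so that the dimer enters the nucleus. Among the first genes it turns on are its own brakes, the inhibitor IkB-alpha and the ubiquitin-editing enzyme A20, which is why their transcripts are often read as a record of pathway activity in macrophages. Kupffer cells meet bacterial products from the gut in portal blood, and these brakes limit their response.

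The promoter sequences are shown because the members are known for being turned on by NF-kB, and the sequence that NF-kB binds can be looked for directly. RefSeq's promoter table for build GRCm38.p6, an older build than the GRCm39 named in the submitters' processing notes, held 12 windows for 9 of the 10 genes, matched by symbol; Nfkbiz was not among them. The 250 bases before each annotated start were searched on both strands for the 10-base kappa B consensus. Of the 9 genes, 6 held at least 1 match in a window, against 4.46% of all 27025 genes in the table. The matched stretches follow, each 5′ to 3′ on the gene's own strand with up to 10 bases on either side, and capitals mark the match.

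Tnip3 (chr6:65590334-65590363, + strand): gagacatcctGGGAAATCCCagttacatgg

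Tnfaip3 (chr10:19015411-19015432, - strand): aatttccatcGGAAATCCCCct

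Tnfaip3 (chr10:19015516-19015545, - strand): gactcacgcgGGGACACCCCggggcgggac

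Nfkbia (chr12:55492657-55492686, - strand): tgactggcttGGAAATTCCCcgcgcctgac

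Tnip1 (chr11:54962978-54963007, - strand): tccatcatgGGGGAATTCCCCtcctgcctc

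Nfkbie (chr17:45555584-45555613, + strand): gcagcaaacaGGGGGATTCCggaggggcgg

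Nfkbid (chr7:30422170-30422199, + strand): gccccgccctGGGACTTCCCagagcaccac

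Nfkbid (chr7:30422215-30422244, + strand): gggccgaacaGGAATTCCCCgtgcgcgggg

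In Tnip1 the 12 capital bases hold 3 overlapping matches, and the matches in Tnip1 and Tnip3 read on both strands. The match in Nfkbia ended 19 bases before the annotated start, the nearer one in Tnfaip3 2 bases before it, and that in Tnip3 44 bases before it. The windows of Nfkbib, Tnip2 and Bcl3 held none, which says only that these letters are not there. The 2 windows below are given whole, for the gene with the highest level among the 10 and the gene with the largest fall.

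Nfkbia (chr12:55492648-55492897, - strand): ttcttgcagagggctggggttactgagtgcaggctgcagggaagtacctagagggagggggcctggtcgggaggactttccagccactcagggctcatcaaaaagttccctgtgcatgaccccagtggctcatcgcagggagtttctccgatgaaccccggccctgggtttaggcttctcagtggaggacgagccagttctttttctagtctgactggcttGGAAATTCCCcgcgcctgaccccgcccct

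Tnip3 (chr6:65590148-65590397, + strand): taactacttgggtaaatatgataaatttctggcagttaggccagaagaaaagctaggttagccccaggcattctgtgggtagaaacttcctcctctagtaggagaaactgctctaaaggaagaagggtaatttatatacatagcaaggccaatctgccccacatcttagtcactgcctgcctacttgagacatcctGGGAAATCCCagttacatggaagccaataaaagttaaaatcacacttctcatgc

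Library depth ran from 23201076 to 33280754 counts, and levels are given as CPM, the usual library-scaled count, with TMM factors. Epo itself was read at 29, 44 and 21 counts in KC_Epo 1 to 3 and at 0 counts in each KC_EV library. Its receptor gene Epor averaged 29.4 ± 1.62 CPM in KC_Epo and 12.9 ± 2.65 CPM in KC_EV (SD, n = 3 each). By edgeR's quasi-likelihood test with Benjamini-Hochberg adjustment over all 13120 genes, 4234 genes (32.3%) were called at 0.05, with 2219 higher and 2015 lower. Higher genes made up 52.4% of these calls under TMM scaling, 40.6% under upper-quartile scaling and 24.8% when libraries were scaled by their totals alone. Calls numbered 2728 when KC_Epo 3 was left out. Of 12 Kupffer cell markers, 9 rose and 1 fell, and their summed level was 44479 to 49038 CPM in KC_Epo and 29414 to 31657 CPM in KC_EV. Clec4f, the lectin that marks Kupffer cells, averaged 11032 ± 863 CPM in KC_Epo and 6400.1 ± 186 CPM in KC_EV. In bulk libraries fewer cells of a type and less RNA per cell cannot be told apart.

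The levels per length were compared first, because counts of different genes depend on their length. Nfkbia was the most abundant of the 10 genes in both groups, at 244 ± 7.39 CPM per kilobase of annotated exon in KC_Epo and 336 ± 11.8 CPM per kilobase in KC_EV (SD, n = 3 each). Every other gene of the 10 lay far below it. In KC_Epo the order after Nfkbia was Nfkbid at 38.1, Bcl3 at 31.9, Nfkbiz at 26.7, Nfkbib at 21.4, Tnfaip3 at 19.9, Tnip2 at 19.1, Tnip1 at 15.7 and Nfkbie at 14.9 CPM per kilobase. In KC_EV it was Nfkbiz at 45.5, Nfkbid at 39.9, Bcl3 at 32.2, Tnfaip3 at 28.4, Nfkbib at 21.6, Tnip1 at 18.9, Tnip2 at 18.4 and Nfkbie at 17.8 CPM per kilobase. Library values overlapped between Nfkbib and Tnfaip3, between Tnfaip3 and Tnip2, and between Tnip1 and Nfkbie in KC_Epo. In KC_EV they overlapped between Nfkbib and Tnip1, between Tnip1 and Tnip2 and between Tnip2 and Nfkbie, so the order of these neighbours is not settled. Tnip3 stood last, at 0.0988 ± 0.0426 CPM per kilobase in KC_Epo and 1.203 ± 0.177 CPM per kilobase in KC_EV. Lengths are the merged exons of all annotated transcripts in GENCODE M21, and a gene with long rarely used exons is understated by them.

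**Figure D1:**
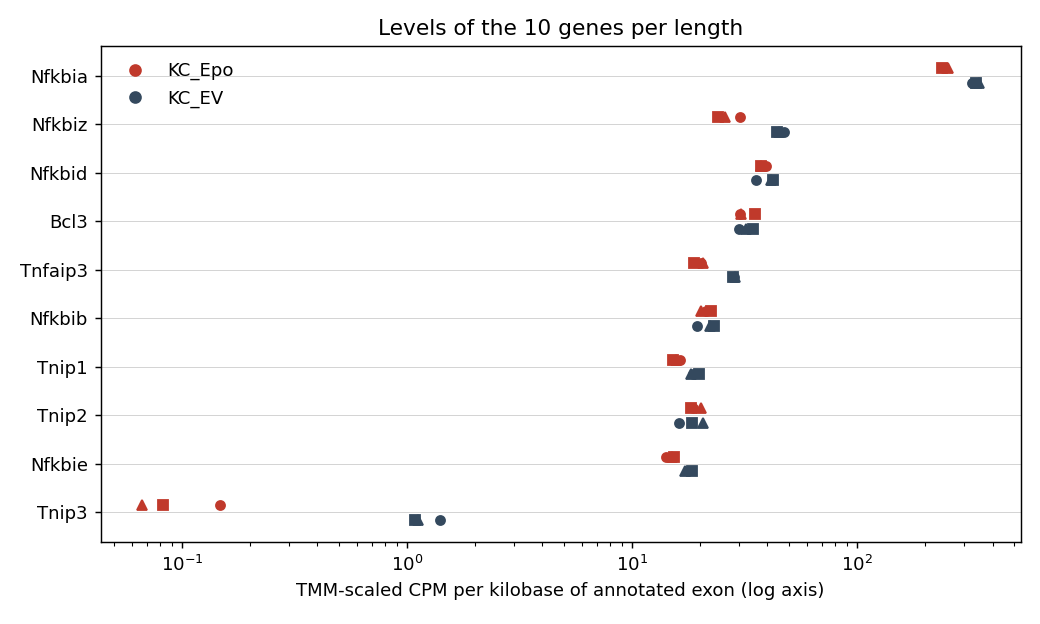
Levels of the 10 genes in CPM per kilobase of annotated exon, on a log axis, with 1 point per library (circle, square and triangle for replicates 1, 2 and 3; KC_Epo above KC_EV in each row). Nfkbia lies far to the right at 244 and 336 CPM per kilobase on average, and Tnip3 far to the left at 0.0988 and 1.203 CPM per kilobase.

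The classical IkB proteins hold NF-kB dimers in the cytoplasm. Nfkbia encodes IkB-alpha, the inhibitor that is destroyed and made anew within a signalling cycle. It had 388, 385 and 407 CPM in KC_Epo 1 to 3, against 521, 543 and 559 CPM in KC_EV 1 to 3. The groups did not overlap, and the library values within a group lay close together. Its log2 fold change was -0.46 ± 0.07 (SE, edgeR adjusted p = 0.000389). Nfkbie encodes IkB-epsilon, a slower feedback inhibitor that favours dimers holding RelA or c-Rel. It had 43.3, 47.0 and 45.9 CPM in KC_Epo, against 53.9, 56.2 and 52.5 CPM in KC_EV, again with no overlap. Its log2 fold change of -0.26 ± 0.07 passed narrowly (edgeR adjusted p = 0.021), and the call was lost without KC_Epo 1, KC_Epo 3 or KC_EV 2, where the highest adjusted p was 0.0936. Nfkbib encodes IkB-beta, whose transcript is less tied to NF-kB itself. It had 46.4, 48.7 and 44.1 CPM in KC_Epo, against 42.1, 50.2 and 48.2 CPM in KC_EV. The groups overlapped, and the interval of the log2 fold change ran from -0.20 to 0.18 (95%, edgeR adjusted p = 0.926). Exons of Nfkbib overlap those of Sirt2 by 42 bases and those of Ccer2 by 314 bases, both on the other strand, and no source at hand names the strand setting of the counting.

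The atypical IkB proteins work in the nucleus, where they can help or block NF-kB on chromatin. Nfkbiz encodes IkB-zeta, which is induced early by Toll-like receptor and interleukin 1 signals and is needed for a set of later genes such as Il6 and Lcn2. It had 151, 121 and 131 CPM in KC_Epo, against 237, 222 and 225 CPM in KC_EV. Every KC_Epo library was below every KC_EV library, and KC_Epo 1 was the highest of its group. The log2 fold change was -0.77 ± 0.09 (SE, edgeR adjusted p = 4.63e-05). Nfkbid encodes IkB-NS, which restrains cytokine genes through the NF-kB subunit p50. It had 92.7, 87.6 and 87.6 CPM in KC_Epo, against 83.8, 99.6 and 97.5 CPM in KC_EV. KC_EV 1 was the lowest of all 6 libraries, and the groups overlapped. The log2 fold change was -0.07 ± 0.08 (edgeR adjusted p = 0.546), but it passed without KC_EV 1 and KC_Epo 1 at -0.18 (adjusted p = 0.0348). It also passed with scaling by library totals alone at -0.23 (adjusted p = 0.0469), where the median of all genes was itself at -0.16. Bcl3 encodes a nuclear partner of p50 and p52. It had 74.8, 86.9 and 75.4 CPM in KC_Epo, against 73.8, 85.4 and 79.6 CPM in KC_EV, and the groups overlapped almost fully. The interval of its log2 fold change ran from -0.19 to 0.17 (95%, edgeR adjusted p = 0.944). Its exons overlap those of the antisense gene Gm16175 by 161 bases.

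A20 and the ABIN proteins act upstream, on the ubiquitin chains that carry the signal to the IKK kinases. Tnfaip3 encodes A20, which removes and remodels these chains. It had 146, 136 and 149 CPM in KC_Epo, against 204, 204 and 208 CPM in KC_EV. The spread within KC_EV was small, at 1.10% of its mean, and the groups were well apart. The log2 fold change was -0.51 ± 0.07 (SE, edgeR adjusted p = 0.000157). Tnip1 encodes ABIN-1, an A20 partner that binds ubiquitin chains and limits cell death. It had 57.8, 53.9 and 55.5 CPM in KC_Epo, against 65.8, 70.1 and 64.9 CPM in KC_EV. The groups did not overlap, and the log2 fold change was -0.26 ± 0.07 (SE, edgeR adjusted p = 0.0152). This call was lost without KC_Epo 2, KC_Epo 3 or KC_EV 2, where the highest adjusted p was 0.0788. Tnip2 encodes ABIN-2, which also stabilises the kinase Tpl2. It had 50.4, 49.4 and 54.1 CPM in KC_Epo, against 43.3, 49.6 and 55.6 CPM in KC_EV. KC_EV held both the lowest and the highest library, and the interval of the log2 fold change ran from -0.16 to 0.26 (95%, edgeR adjusted p = 0.724).

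Tnip3 encodes ABIN-3, the member of this small family whose transcript is known to be induced by bacterial lipopolysaccharide. It had 50, 28 and 16 counts in KC_Epo 1 to 3, against 487, 371 and 413 counts in KC_EV 1 to 3. On the scaled level this was 1.61, 0.901 and 0.729 CPM in KC_Epo, against 15.4, 11.9 and 12.2 CPM in KC_EV. The lowest KC_EV library stood far above the highest KC_Epo library. The log2 fold change was -3.58 ± 0.27 (SE, edgeR adjusted p = 2.76e-06), the 26th largest fall among the 2015 genes called lower. The falls of the other 5 members ranked between 1113 and 1926 in the same list. Its 95% interval ran from -4.17 to -2.99, while that of Nfkbiz, the next largest fall of the 10, ran from -0.95 to -0.58. With few counts in KC_Epo its libraries also differed most, by an SD of 43.1% of the mean.

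**Figure D2:**
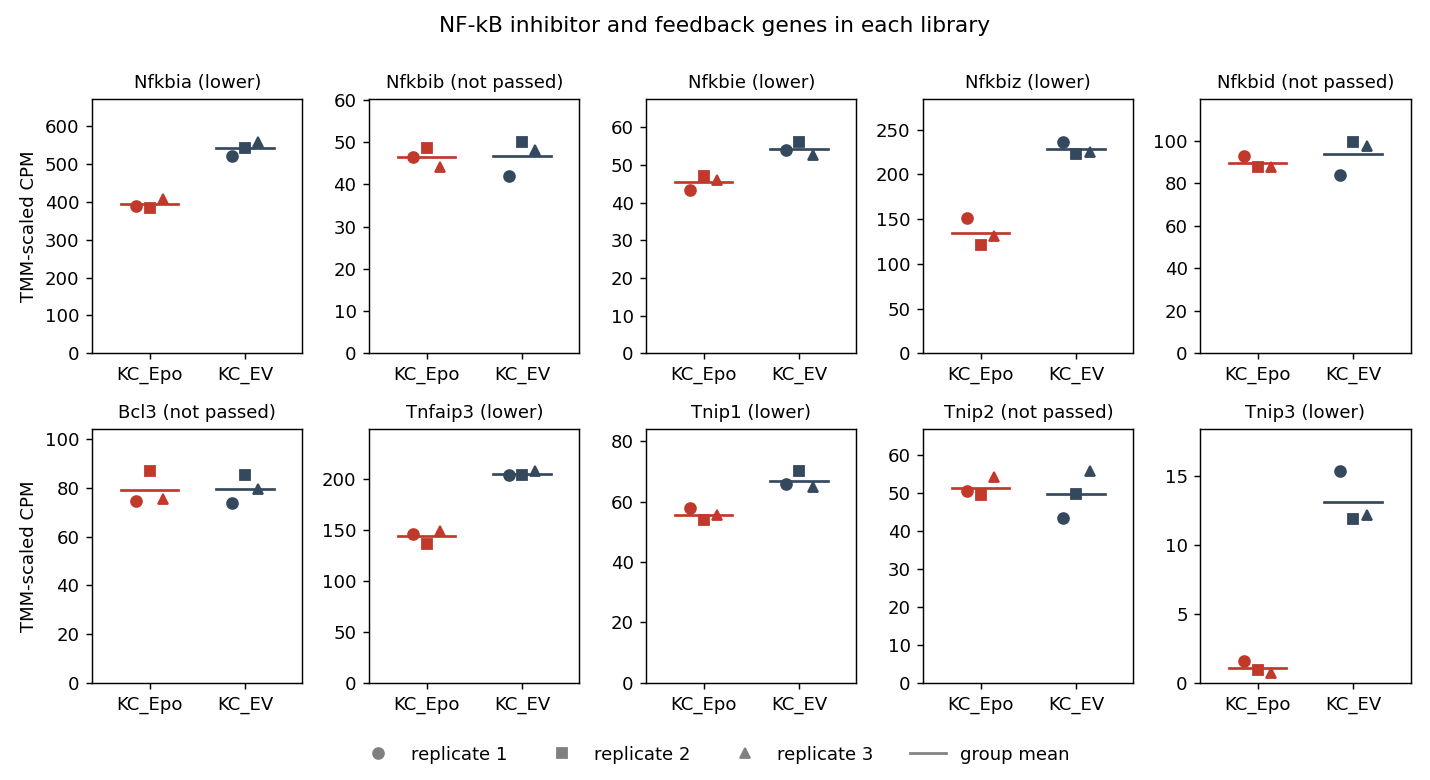
TMM-scaled CPM of each of the 10 genes, with 1 point per library (KC_Epo left, KC_EV right; horizontal line, group mean; each panel starts at 0 on its own scale). The points of the 2 groups are apart for Nfkbia, Nfkbie, Nfkbiz, Tnfaip3, Tnip1 and Tnip3 and overlap for Nfkbib, Nfkbid, Bcl3 and Tnip2.

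Across the list, 6 of 10 members were called lower where 15.4% of all tested genes were, and 0 were called higher where 16.9% of all tested genes were. The same 6 did not overlap between groups, in the lower direction, which held for 24.2% of all tested genes, while 24.1% stood apart in the higher direction and 48.3% in either. The median log2 fold change of the 10 was -0.26, against -0.0045 over all genes tested. The summed level of the 10 was 1052, 1016 and 1050 CPM in KC_Epo 1 to 3, against 1340, 1392 and 1403 CPM in KC_EV 1 to 3, so the pool as a whole was lower in each KC_Epo library. Nfkbia supplied the largest part of that sum. Within a group the median SD of the members between libraries was 4.75% of the mean in KC_Epo and 5.71% in KC_EV. Over all genes tested it was 9.35% and 8.75%, but the genes were not matched for level. Tnip3, the member with the fewest counts, had 43.1% in KC_Epo and 14.7% in KC_EV.

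**Figure D3:**
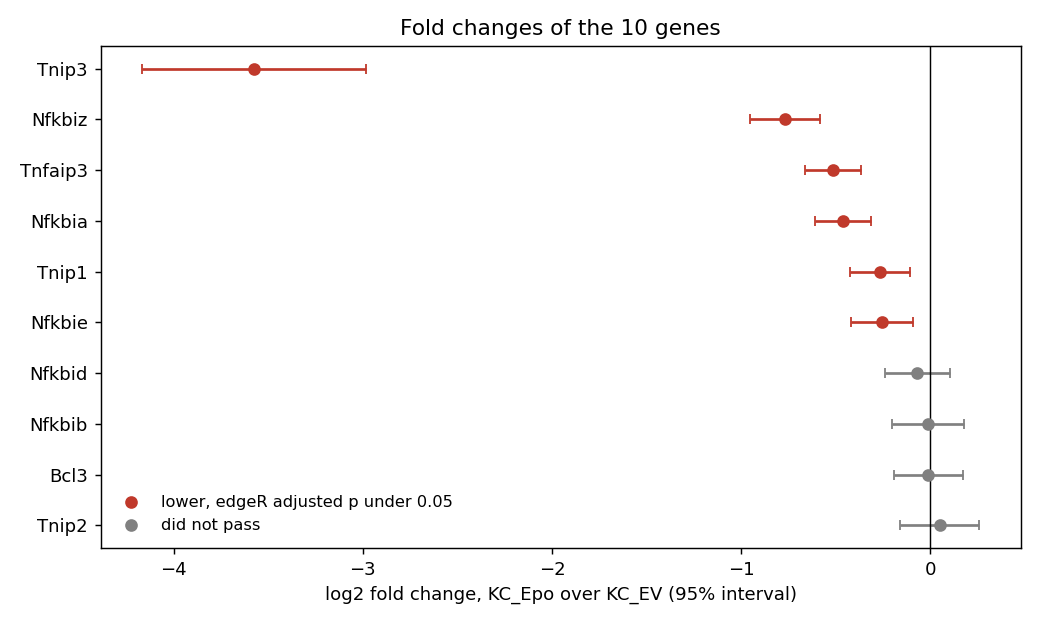
Log2 fold change of each gene, KC_Epo over KC_EV, with its 95% interval from the edgeR fit (n = 3 libraries each); red, lower with adjusted p under 0.05; grey, did not pass. Tnip3 lies at -3.58, the other 5 called genes between -0.77 and -0.26, and the 4 others have intervals that cross 0.

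The calls were also set beside the promoter matches shown above, a comparison chosen after the members' values were seen. Of the 6 members with a match in a window, 5 were lower, and the other was Nfkbid. Of the 3 without a match, 0 were lower. Among other tested genes with a window, 108 of 555 with a match were lower (19.5%) and 100 were higher (18.0%). Without a match 1419 of 9681 were lower (14.7%) and 1641 were higher (17.0%). Outside the list, genes with a match were called in both directions at similar shares.

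The NF-kB subunits were read next. Of the 5, 4 fell and 0 rose, with a median log2 fold change of -0.53. Nfkb1, which encodes p105 and its product p50, had 145, 147 and 148 CPM in KC_Epo, against 219, 217 and 221 CPM in KC_EV. Its SD was 1.03% of the mean in KC_Epo and 0.951% in KC_EV, and the log2 fold change was -0.58 ± 0.06 (SE; edgeR adjusted p = 4.51e-05). Rel, which encodes c-Rel, fell by 0.69 on the log2 scale, Relb by 0.53, and Nfkb2, which encodes p100 and p52, by 0.46. Exons of Nfkb2 overlap those of AC114539.1 by 531 bases and those of Psd by 299 bases, both on the other strand. Rela, which encodes the main activating subunit, had 133, 142 and 140 CPM in KC_Epo, against 123.4, 138 and 141 CPM in KC_EV. It did not pass, at 0.04 ± 0.07 (edgeR adjusted p = 0.697), and the sign of this value turned under upper-quartile scaling and under scaling by library totals alone.

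Ratios of member counts to subunit counts within a library do not depend on how libraries are scaled. Against Rela, the log2 ratio of 6 members was lower in every KC_Epo library than in any KC_EV library, and these were the members called lower by edgeR. Rela itself differed little, at a log2 fold change of 0.04, so these ratios largely repeat the members' own fold changes. The share of all tested genes that stood apart in this ratio was not computed. Nfkbia had a log2 ratio to Rela of 1.51 ± 0.06 in KC_Epo and 2.01 ± 0.06 in KC_EV (SD, n = 3 each; exact two-sided permutation p = 0.1, 0.167 adjusted over 10 ratios). With 3 libraries against 3 an exact p cannot go below 0.1, so none of these ratios can pass 0.05. Nfkbiz had a log2 ratio to Rela of -0.0518 ± 0.21 in KC_Epo and 0.77 ± 0.15 in KC_EV (exact permutation p = 0.1).

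Against the summed counts of all 5 subunits the picture differed, since 4 of them fell too. The log2 ratio of Nfkbia to that sum was -0.27 ± 0.04 in KC_Epo and -0.22 ± 0.02 in KC_EV (SD, n = 3 each; exact permutation p = 0.2, 0.2 adjusted over 10 ratios), and the groups overlapped. The ratio stayed lower in KC_Epo, without overlap, for Nfkbiz at a log2 difference of -0.36, Tnfaip3 at -0.10 and Tnip3 at -3.26 (exact permutation p = 0.1 each, 0.111 adjusted). It was higher in KC_Epo, without overlap, for the other 6, from 0.15 for Tnip1 to 0.47 for Tnip2. The subunits summed to 470 to 478 CPM in KC_Epo and 618 to 649 CPM in KC_EV, so a gene of unchanged level rises in this ratio. Nfkbib and Bcl3, whose own levels did not pass, both stood at 0.40. The share of all tested genes that stood apart in this ratio was not computed. The sign of the difference turned between the 2 denominators for Nfkbie and Tnip1, which stood apart in both, and for Nfkbid, Nfkbib and Bcl3, which overlapped against Rela.

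**Figure D4:**
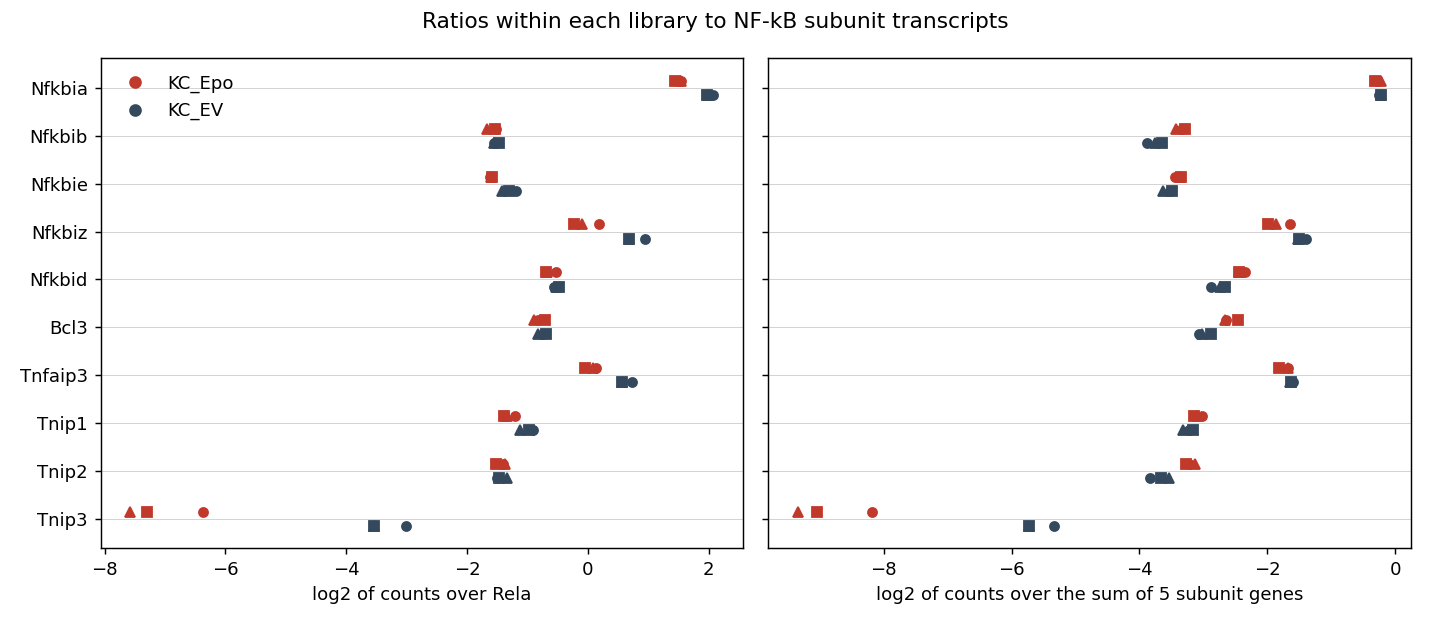
Log2 ratio of each gene's counts to Rela (left) and to the sum of Rela, Relb, Rel, Nfkb1 and Nfkb2 (right) within each library (KC_Epo above KC_EV; circle, square and triangle for replicates 1, 2 and 3). Nfkbia averaged 1.51 and 2.01 in the left panel, where the groups are apart, and -0.27 and -0.22 in the right panel, where they overlap.

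Other parts of the pathway follow, to be read beside all tested genes, of which 16.9% were higher and 15.4% lower. No set test was run on these lists. Of 10 IKK and related kinase genes, 2 rose and 1 fell, with a median log2 fold change of 0.09. Ikbke, an inducible IKK relative, fell to 320 ± 53.0 CPM in KC_Epo, against 645 ± 29.7 CPM in KC_EV (SD, n = 3 each; edgeR adjusted p = 4.46e-05). The core kinases Chuk and Ikbkb, at -0.04 ± 0.07 and 0.05 ± 0.07 (SE), did not pass. Ikbkg, their regulatory subunit NEMO, rose by 0.27 ± 0.09 and Tbk1 by 0.23 ± 0.07, and neither passed under upper-quartile scaling. The call of Ikbkg was lost without KC_Epo 2, KC_Epo 3, KC_EV 1 or KC_EV 3, and that of Tbk1 without KC_Epo 3, KC_EV 2 or KC_EV 3. Of 16 upstream adaptor genes 2 rose and 4 fell, with a median of -0.02. The ubiquitin ligases Birc2 and Birc3, at -0.59 ± 0.09 and -0.45 ± 0.09, fell, while the receptor-associated kinase Irak1 rose by 0.39 ± 0.09 and did not pass under scaling by library totals alone.

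Among 9 A20 partners and other deubiquitinase genes, 1 rose and 1 fell, with a median of 0.08. Otulin, which cuts linear ubiquitin chains, had a log2 fold change of -0.39 ± 0.08 (edgeR adjusted p = 0.00215), and it did not pass in a test against a 1.2-fold change (adjusted p = 0.0870). Itch, a ligase that works with A20, rose by 0.36 ± 0.08 and did not pass under scaling by library totals alone. The A20 adaptors Tax1bp1 and Rnf11, at 0.10 ± 0.08 and 0.17 ± 0.10, did not pass, nor did Cyld, another deubiquitinase, at 0.02 ± 0.08.

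Of 20 other negative regulators, 3 rose and 6 fell, with a median of -0.06. Irak3, which blocks Toll-like receptor signalling, had 40.01, 32.5 and 38.7 CPM in KC_Epo, against 152, 121 and 139 CPM in KC_EV. Its log2 fold change was -1.89 ± 0.10 (SE, edgeR adjusted p = 4.65e-07). Zc3h12a, the RNase Regnase-1 that cuts inflammatory transcripts, had a value of -0.47 ± 0.08. Zfp36, which destabilises AU-rich transcripts such as that of Tnf, rose by 0.97 ± 0.09. Nkiras2, a Ras-like protein that binds IkB, rose by 0.95 ± 0.10.

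Of 30 NF-kB response genes, 5 rose and 17 fell, with a median of -0.41. Tnf had 46.7, 48.5 and 49.4 CPM in KC_Epo, against 158, 140 and 143 CPM in KC_EV. Il1b, encoding interleukin 1 beta, had a log2 fold change of -1.29 ± 0.07. Vcam1, an adhesion molecule, rose by 1.70 ± 0.08. Il6, known as a target of IkB-zeta, rose by 0.40 ± 0.10 (edgeR adjusted p = 0.012) in libraries where Nfkbiz fell. That call was lost under scaling by library totals alone. Lcn2, another such target, had 30.6, 15.9 and 20.7 CPM in KC_Epo, against 0.883, 8.09 and 18.2 CPM in KC_EV, and did not pass (adjusted p = 0.397). Its order over the KC_EV libraries was that of the neutrophil marker sums given below.

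**Figure D5:**
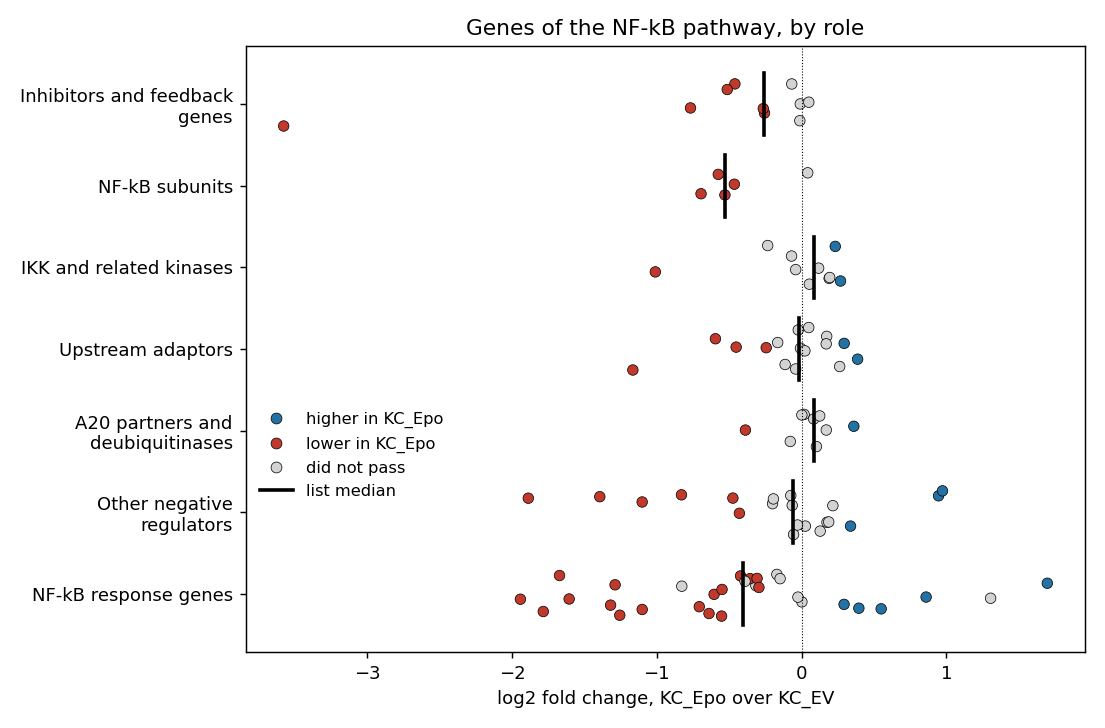
Log2 fold change, KC_Epo over KC_EV, of every tested gene of 7 lists (blue, higher; red, lower; grey, did not pass; black bar, list median; vertical scatter within a row has no meaning). The medians lie at -0.26 for the inhibitors and feedback genes, -0.53 for the subunits and -0.41 for the response genes, and between -0.06 and 0.09 for the other 4 lists.

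Markers of other cells moved in the same libraries, and their part in the members' falls was not tested. Of 12 endothelial markers 9 fell and 1 rose, and their sum was 2343 to 3113 CPM in KC_Epo and 4708 to 5502 CPM in KC_EV. Within KC_Epo that sum was highest in KC_Epo 1, as were the sums of the dendritic, hepatocyte, erythroid, neutrophil and stellate cell lists. Nfkbiz, Tnip1 and Tnip3 were also highest in KC_Epo 1, while Nfkbia and Tnfaip3 were highest in KC_Epo 3 and Nfkbie in KC_Epo 2. Of 8 dendritic cell markers 5 fell, and their sum was 113 to 117 CPM in KC_Epo and 158 to 172 CPM in KC_EV. Hepatocyte markers rose in 7 of 12 cases, with sums of 5718 to 19749 CPM in KC_Epo and 2620 to 3229 CPM in KC_EV. Erythroid markers rose in all 7 tested cases, with sums of 606 to 1109 CPM in KC_Epo and 33.3 to 43.1 CPM in KC_EV. By the mean over both groups the highest genes of these lists were Cdh5, Clec9a, Alb and Hbb-bs. Cdh5, which was below Dnase1l3 and Stab2 in KC_EV, ran against its list, at 812 ± 19.1 CPM in KC_Epo and 682 ± 5.88 CPM in KC_EV. Clec9a did not pass, at 69.0 ± 2.23 CPM in KC_Epo and 67.8 ± 1.46 CPM in KC_EV.

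Neutrophils also express Nfkbia and Nfkbiz, and neutrophil markers differed widely within KC_EV. The 8 tested markers summed to 35.7, 33.9 and 34.3 CPM in KC_Epo 1 to 3, against 17.4, 140 and 258 CPM in KC_EV 1 to 3. The sum in KC_EV 1 was below that of every KC_Epo library, while the sums in KC_EV 2 and KC_EV 3 were above. The 6 called members were above every KC_Epo library in each of KC_EV 1 to 3. Any part of neutrophils in the members' falls was not tested. Ngp, a granule protein gene and the highest of that list by the mean over both groups, averaged 5.80 ± 0.881 CPM in KC_Epo and 44.7 ± 44.4 CPM in KC_EV. In KC_Epo it was below S100a9, and in KC_EV 1 it was at 0.694 CPM. Ly6g, the defining marker, had 0, 0 and 4 counts in KC_Epo 1 to 3, against 0, 26 and 13 counts in KC_EV 1 to 3.

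Monocyte markers rose in 3 and fell in 2 of 8 cases, with sums of 376 to 385 CPM in KC_Epo and 260 to 334 CPM in KC_EV. B cell markers rose in 2 of 7 cases, with sums of 206 to 211 CPM in KC_Epo and 175 to 195 CPM in KC_EV. T and NK cell markers fell in 1 of 9 cases, with sums of 61.4 to 83.4 CPM in KC_Epo and 75.6 to 90.8 CPM in KC_EV. Stellate cell and fibroblast markers fell in 4 of 9 cases, with sums of 29.7 to 65.5 CPM in KC_Epo and 116 to 120 CPM in KC_EV. Immediate early genes, which tissue dissociation can induce as it does Nfkbia and Nfkbiz, rose in 9 of 16 cases and fell in 3, with a median log2 fold change of 0.25. Those that rose ran from Jun at 0.25 ± 0.08 to Fosb at 1.09 ± 0.13 (SE). The smallest adjusted p-values of this list belonged to Hspa1b, Hspa1a and Btg2, which fell, at -1.63 ± 0.10, -1.35 ± 0.08 and -0.55 ± 0.07. Hspa1b and Hspa1a are heat shock genes so alike that reads can be split between them.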

How the data were processed

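Libraries were prepared from polyA RNA with Illumina's TruSeq stranded mRNA kit, per the labels' protocols. STAR 2.7.3a, HTSeq 0.11.2, Bowtie2 2.5.1, FastQC 0.11.8 and build GRCm39 appear in the submitters' processing notes without a role. The authors deposited raw read counts by gene symbol. Where a symbol had 2 rows (12 symbols), the larger row stood for the gene. The smaller row was kept as a separate row under a changed name. The fit ran in edgeR 4.0.16 (R 4.3.3) with filterByExpr, TMM, robust quasi-likelihood dispersion, no block and a two-sided F test. P-values were adjusted over 13120 genes at a threshold of 0.05, and standard errors derive from F. The labels number the mice but say no more about their origin, so p-values measure the spread between libraries, which may be technical. No library was a copy of another (lowest chi-square per gene 6.14). The fit was also tested on simulated counts.

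The members and gene lists were chosen with earlier results of these data known. Named genes were all members and subunits, the 3 smallest adjusted p-values of each pathway list and of the immediate early genes, the highest gene of each marker list by the mean over both groups, Epo, Epor and 12 further genes (Ikbkb, Ikbkg, Chuk, Tax1bp1, Cyld, Otulin, Irak3, Zc3h12a, Tnf, Il1b, Il6 and Lcn2). The highest genes of the monocyte, T and NK cell and stellate cell lists were Plac8, Cd4 and Dcn; 1 further gene is not reported here. Jun and Fosb are also named, as the lowest and highest of the immediate early genes that rose. Promoter windows are RefSeq's (GRCm38.p6) and exon lengths GENCODE M21's. DESeq2 1.42.0 and limma-voom (limma 3.58.1) were among 18 alternatives.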

Additional observations from a re-analysis of the deposited data

How the results depend on the processing

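Nfkbia, Nfkbiz, Tnfaip3 and Tnip3 passed as lower under all 18 alternatives, with ranges of -0.62 to -0.43, -0.92 to -0.69, -0.67 to -0.47 and -3.98 to -3.38. Nfkbie and Tnip1 each passed under 14; beside the libraries named above, both were lost in a test against a 1.2-fold change, as were Ikbkg, Tbk1, Irak1, Itch, Otulin and Il6. Members called lower numbered 4 in that test, 4 to 6 with a library left out and 7 under scaling by library totals, against 6. All genes called numbered 2138 (962 higher, 1176 lower) in that test and 2728 to 4557 with a library left out (1477 to 2410 higher, 1251 to 2147 lower). Under library totals 1193 were higher and 3616 lower, and the pathway lists had 6 genes called higher, 5 in the 1.2-fold test, against 13.

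The log2 fold changes that changed sign were all uncalled, and the cause was not tested. Under upper-quartile scaling and library totals, Tnip2 stood at -0.0124 and -0.11, Rela at -0.0198 and -0.12, Ikbkb at -0.0086 and -0.11, and Cyld at -0.0446 and -0.14; Tax1bp1 stood at -0.0560 under library totals. Without KC_EV 1 and KC_Epo 1, Tnip2 stood at -0.0363 and Ikbkb at -0.0278. With a library left out the ranges were -0.0808 to 0.0415 for Nfkbib, -0.0364 to 0.14 for Tnip2, -0.0752 to 0.0462 for Bcl3, -0.0130 to 0.0817 for Rela, -0.0104 to 0.0968 for Ikbkb and -0.0395 to 0.0685 for Cyld. Ratios to the subunit sum in place of Rela turned to 0.40 for Nfkbib and Bcl3, 0.35 for Nfkbid, 0.16 for Nfkbie and 0.15 for Tnip1. With a replicate block 3358 genes and 6 members were called. Deviations of same-numbered libraries from their group means had correlations of -0.11, -0.15 and -0.0407. No pairing by number was visible, though 3 such correlations cannot exclude one. Tnip3 rests on 16 to 50 counts per KC_Epo library, the thinnest depth among the members.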
